A study of Medicago truncatula with 48 samples.

Results

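The step from seed stage S1 to seed stage S2 was followed in embryos of Medicago truncatula A17, a model legume, that ripened at 26 °C. It comprised 6 of 48 RNA-seq libraries, chosen by their sample labels: 3 libraries of embryo at S1, 14 days after pollination, and 3 at S2, 17 days after pollination. Each library was made from at least 50 dissected embryos. All plants had first grown at 20 °C, and those of the heat stress condition were moved to 26 °C by day after flowering, so that both stages shared the treatment. The labels give nights of 19 °C for the plants kept at 20 °C and of 14 °C for the heat stress condition, so that by the labels the conditions differ by night as well. The methods of the study give other nights for both, with a warmer night under heat stress. The step was compared with that of embryo at 20 °C by day, which had reached S1 at 17 days and S2 at 26 days after pollination (3 libraries each), and with that of endosperm at 26 °C, with 2 libraries at each of the same stages. Embryo libraries of the later stages S3 and S4 at both temperatures entered the fit, and endosperm and seed coat libraries of S1 and S2 gave the marker lists. The days between S1 and S2 therefore differed between the temperatures, and stage and age cannot be told apart within a temperature. Nothing in the labels says whether the replicates came from separate plants. The p-values of the fits thus rest on the spread between dissected lots, estimated over all libraries of a fit.

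S1 precedes and S2 follows the acquisition of desiccation tolerance, the capacity of a seed to survive drying. In legumes the embryo at this time is in seed filling: its cotyledons store protein, oil and carbohydrate, and the messenger RNAs of storage proteins become some of the most abundant in the cell. Cell division and early patterning genes are turned down over the same period, while protective proteins for the dry state appear later in maturation. None of the 44473 transcript identifiers could be paired with a gene name, so that storage, protective and heat shock genes were not looked up and transcripts are described by their levels, position and pattern.

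The 6 libraries held between 18429950 and 19142113 estimated counts. S1 replicate 2 stood apart from the others. It had 26336 transcripts with at least 1 count, against 24944 and 25037 in the other S1 libraries and 24800 to 24954 at S2. Marker lists were drawn by rule from the S1 and S2 libraries at 20 °C, as transcripts with at least 50 CPM (counts scaled to library total) in a tissue and at least 20 times below that in the others. The 28 seed coat markers summed to 89.3 CPM in S1 replicate 2, to 33.8 and 34.0 CPM in the other S1 libraries, and to 32.9 to 37.4 CPM at S2. In seed coat libraries of the same stages at 26 °C these markers reached 27429 to 35743 CPM. The 73 endosperm markers summed to 41.0 to 45.2 CPM in S1 embryos and to 31.9 to 34.4 CPM in S2 embryos, against 33915 to 44927 CPM in endosperm at 26 °C. Of the endosperm markers 7 were at 0 in all S1 libraries and 14 in all S2 libraries. Among the 19 seed coat markers tested 1 was higher at S2 and 0 were lower by edgeR's test, and among the 37 endosperm markers tested 4 were higher and 2 lower, where 11.5% of all transcripts tested were higher and 10.2% lower. Their part in the results was not tested. The rule returned 0 markers for embryo, so that the tissue label was checked by the near absence of the other tissues' markers only.

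Between S1 and S2 the share of counts held by the 10 most abundant transcripts rose in the 26 °C embryo. Changes were tested by the quasi-likelihood method of edgeR, fitted to all 24 embryo libraries of the series, and transcripts were counted as changed at a Benjamini-Hochberg adjusted p-value below 0.01. Of 21992 transcripts tested, 4779 (21.7%) changed. Of these 2537 (11.5% of those tested) were higher at S2 and 2242 (10.2%) were lower. At S1 the transcripts called higher held 15.5%, 16.7% and 16.6% of all counts, and at S2 they held 33.8%, 33.9% and 34.1%. The transcripts called lower went from 16.9%, 15.8% and 16.2% to 5.72%, 5.58% and 5.68%. Both sets were called on these same libraries, so that the directions of the sums follow largely from the choice. Transcripts that were not called held 67.2% to 67.7% of counts at S1 and 60.3% to 60.5% at S2.

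**Figure D1:**
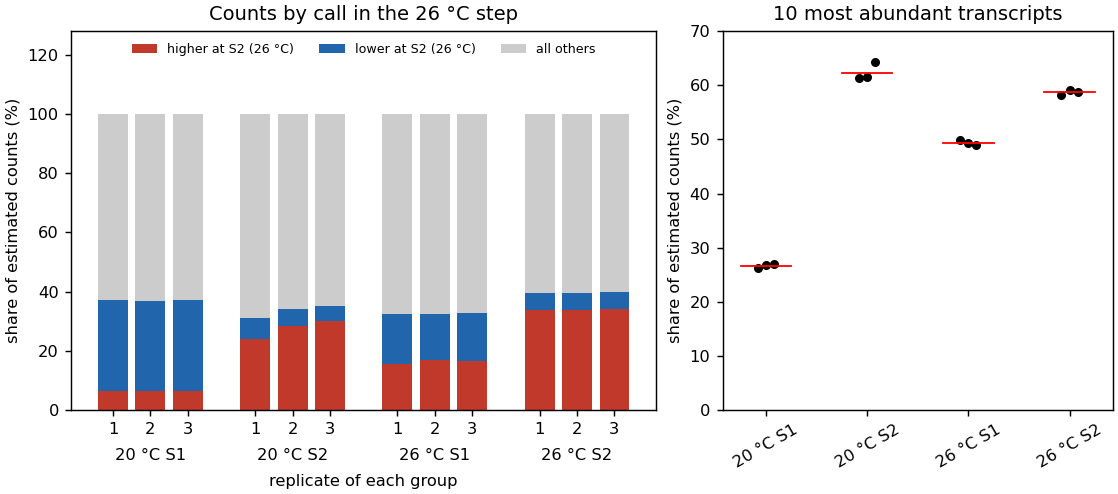
Left, the share of estimated counts (%) in each embryo library at S1 and S2 held by transcripts called higher, called lower and not called in the 26 °C step, and right, the share held by the 10 most abundant transcripts of each library, with 1 point per library and red lines at the group means. At 26 °C the 10 most abundant transcripts held 48.9% to 50.0% at S1 and 58.2% to 59.1% at S2, between the 26.2% to 26.9% and the 61.3% to 64.2% of the 20 °C stages.

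The median change was 1.05 on the log2 scale for transcripts called higher and -1.03 for those called lower, and log2 fold changes of called transcripts ran from -10.10 to 8.85. A change of at least 2-fold was fitted for 1332 higher and 1173 lower transcripts, of at least 4-fold for 542 and 404, and of at least 16-fold for 124 and 52. Changes below 2-fold made up 47.6% of the calls. The 3 libraries of S1 did not overlap the 3 of S2 in 4777 of the called transcripts, and in 10789 (49.1%) of all those tested. The balance of the directions rested on the scaling. TMM scaling, which assumes that most transcripts do not change, put 53.1% of the calls on the higher side, RLE size factors 42% and DESeq2 41.3%. Scaling to the library total alone put 17.2% there, since it moved the median of all transcripts from 0.06 to -0.34 on the log2 scale. Without S1 replicate 2 the count was 4621, with 39.0% on the higher side. Those 4621 included 3870 of the 4779, all in the same direction. In whole-tissue samples, fewer cells of a type and less RNA per cell cannot be told apart.

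**Figure D2:**
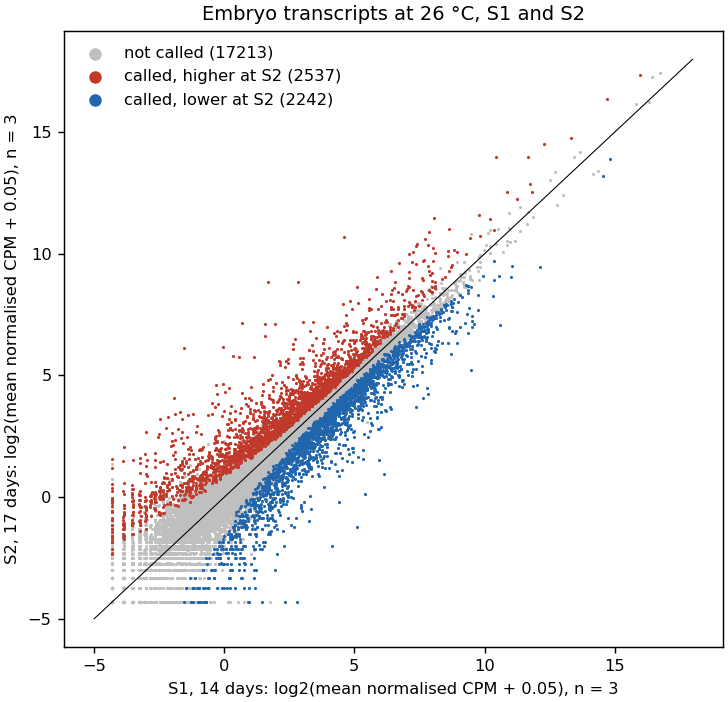
Mean level of each tested transcript in embryo at 26 °C, S1 on the horizontal and S2 on the vertical axis, as normalised CPM on log axes, with the transcripts called higher and lower in colour. The most abundant transcripts, at the upper right, lie mostly above the line of equal levels. By the mean over the embryo libraries of all stages at both temperatures, 62 had at least 1000 CPM. Of these 35 were called higher.

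Transcripts were grouped by their mean CPM over the embryo libraries of all stages at both temperatures. By this mean the share called rose with abundance, and the directions lay furthest apart among the most abundant transcripts. Most of these libraries are later than S1, so that the upper groups favour transcripts that are high after S1. The part of this choice in the split of directions was not tested. Among 4624 transcripts with a mean below 1 CPM, 3.74% were higher and 4.91% lower. Between 1 and 10 CPM the shares were 9.65% and 9.68% of 9690, and between 10 and 100 CPM they were 17.5% and 13.2% of 6870. Between 100 and 1000 CPM 25.6% of 746 were higher and 22.1% lower. Of the 62 transcripts at or above 1000 CPM 35 (56.5%) were higher and 3 (4.84%) lower. The median standard error of the log2 fold change was 0.63 below 1 CPM and 0.14 between 10 and 100 CPM, so that small changes of rare transcripts were less likely to be detected. Higher transcripts had a median annotated length of 1930 bases, lower ones of 1633 bases and all tested ones of 1773 bases.

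The 10 most abundant transcripts together held 49.4% ± 0.54 of counts at S1 and 58.7% ± 0.45 at S2 (SD, n = 3 each). The difference of 9.27 percentage points separated all S2 from all S1 libraries, with an exact permutation p of 0.1 (two-sided), the smallest that 3 against 3 libraries can give. The 3 most abundant went from 26.4% to 35.7% and the 100 most abundant from 66.1% to 75.2%. The lists of both stages, ranked by mean count, named 14 transcripts, of which 6 stood in both. Of the 14, 5 were called higher, 2 lower and 7 were not called, where 11.5% of all transcripts tested were higher and 10.2% lower. By chromosome 6 of them lie on 1, 5 on 7, 2 on 2 and 1 on 3. The most abundant transcript at both stages, on chromosome 1, took 10.4% of counts at S1 and 12.6% at S2. Its change of 0.69 ± 0.31 (log2, SE) did not pass the test with an adjusted p of 0.098. Its estimated counts were not whole numbers in any of the 6 libraries, and the same held for several others of the 14. Reads were thus divided between transcripts, and the shares and ranks of these depend on that division. Per length the order was another: a transcript of 552 bases on chromosome 2, ranked 7 by count at S1 and 4 at S2, had 64942 TPM (counts scaled to length and library) at S1 and 165727 TPM at S2, above the 45307 and 59752 TPM of the one on chromosome 1. It rose by 1.65 ± 0.33 (log2, SE, adjusted p = 0.000437), and all its counts were whole.

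The number of transcripts with at least 1 count was 25439 ± 778 at S1 and 24892 ± 81.1 at S2 (SD, n = 3 each). It did not differ beyond the spread (exact permutation p = 0.2, two-sided, smallest possible 0.1), and without S1 replicate 2 the difference was -98.8 transcripts in place of -547. With at least 10 counts it was 18566 ± 651 at S1 and 17966 ± 59.7 at S2. By that limit the stages did not overlap (exact permutation p = 0.1, two-sided). S1 replicate 2 had 19317, the other S1 libraries 18164 and 18216, and the S2 libraries 17909 to 18028. Of 268 tested transcripts with 0 counts in all S1 libraries 31 were called higher, where 11.5% of all transcripts tested were. Of the 31, 5 reached a mean of 1 CPM at S2, the highest 2.91 CPM. Of 269 with 0 counts in all S2 libraries 15 were called lower, where 10.2% of all transcripts tested were. Of the 15, 5 had a mean of at least 1 CPM at S1, the highest 6.92 CPM. With 0 counts at a stage, only a call in this direction was possible. A count of 0 in all 3 libraries allows up to 0.052 CPM over S1 and 0.054 CPM over S2, from counting error only.

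MtrunA17_Chr7g0261351 gained more counts than any other called transcript. Its normalised CPM were 66935, 63219 and 64987 at S1 and 160438, 167578 and 167570 at S2. The stages were far apart and the replicates of each close together. The 4 transcripts named here were picked among called ones whose stages do not overlap, so that the separation was part of the choice. The rise was 1.34 ± 0.26 (log2, SE, adjusted p = 0.000345), and the transcript moved from rank 4 to rank 2 in the library. At 20 °C it stood at 7605 ± 1044 CPM at S1 and 174537 ± 32194 CPM at S2 (SD, n = 3 each), a rise of 4.52 ± 0.30. The step was smaller at 26 °C, with a difference of -3.18 ± 0.37 on the log2 scale (adjusted p = 1.72e-06). At 17 days after pollination, which was S2 at 26 °C and S1 at 20 °C, the levels were 165195 and 7605 CPM. In the next stages at 26 °C it had 156504 ± 14344 CPM at S3 and 59942 ± 13270 CPM at S4. It lies on chromosome 7, is 1872 bases long and sits in a run of 5 neighbouring tested identifiers that were all called higher, by 0.44 to 2.92 on the log2 scale. Its estimated counts were not whole numbers in any of the 6 libraries, which shows that Salmon divided reads between it and other transcripts, so that its own part of the signal is uncertain.

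MtrunA17_Chr4g0011751 had the largest fold rise among called transcripts with at least 10 CPM at S2. It was near the limit of detection at S1, with 0.347, 0.363 and 0.167 CPM from 6, 7 and 3 counts, and reached 68.2, 73.9 and 68.8 CPM at S2. All S2 libraries were far above all S1 libraries. The log2 change was 7.87 ± 0.33 (adjusted p = 2.02e-13). This SE was derived from the F statistic, and with so few counts at S1 it likely understates the error. At 20 °C the same step took it from 0.376 ± 0.12 to 8.39 ± 0.077 CPM, and the 26 °C step was larger by 3.41 ± 0.58 (adjusted p of the difference 0.000186). Its highest embryo level came at S3, with 845 ± 50.3 CPM at 26 °C and 656 ± 174 CPM at 20 °C, and S4 was at 183 ± 61.2 and 234 ± 21.5 CPM. It lies on chromosome 4, is 1470 bases long, and all its counts were whole.

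MtrunA17_Chr7g0249151 lost more counts than any other called transcript. It had 25337, 22512 and 23598 CPM at S1 and 9391, 9535 and 9460 CPM at S2. The libraries of S2 differed little and lay below all of S1. The log2 change was -1.33 ± 0.35 (adjusted p = 0.0054). This call was close to the threshold: leaving out 1 library at a time kept the sign but lost the call in 5 of 6 fits, with adjusted p-values from 0.0042 to 0.0226. At 20 °C it was at 26208 ± 1028 CPM at S1 and 15348 ± 4803 CPM at S2, a change of -0.77 ± 0.35 that did not pass (adjusted p = 0.065), and the difference between the temperatures did not pass either (-0.56 ± 0.49, adjusted p = 0.48). Later stages at 26 °C were lower still, with 1659 ± 452 CPM at S3 and 81.4 ± 44.0 CPM at S4. It lies on chromosome 7, is 1484 bases long, and its counts were not whole in any of the 6 libraries.

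MtrunA17_Chr5g0442351 had the largest fold fall among called transcripts with at least 10 CPM at S1. Its S1 libraries were spread, at 59.9, 24.0 and 18.4 CPM, with S1 replicate 1 the highest, and its S2 libraries held 0.373, 0.458 and 0.300 CPM. The log2 change was -6.47 ± 0.50 (adjusted p = 1.59e-09). At 20 °C it went from 63.0 ± 2.72 to 1.80 ± 0.81 CPM, a log2 change of -5.12 ± 0.40, and the steps did not differ by the test (-1.35 ± 0.79, adjusted p = 0.256). It lies on chromosome 5, is 1261 bases long, and all its counts were whole.

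**Figure D3:**
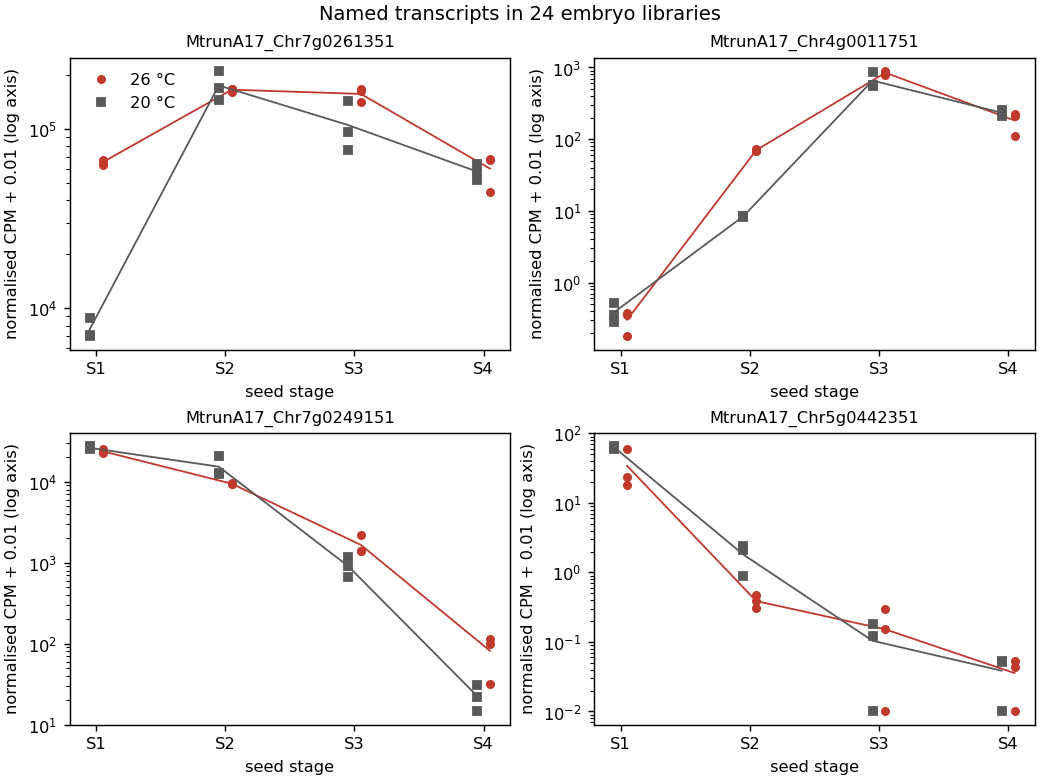
Normalised CPM (log axis, with 0.01 added) of the 4 named transcripts in the 24 embryo libraries over stages S1 to S4 at 20 °C and 26 °C, with 1 point per library and lines through the group means. The largest gain at 26 °C, 1.34 on the log2 scale, starts from a higher S1 level than at 20 °C, and the largest fold rise is followed by a higher level at S3.

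The same step at 20 °C changed more transcripts. There 9733 of 21992 (44.3%) passed, 4833 (22%) higher and 4900 (22.3%) lower. With library totals it was 14968, with 8.32% of the calls on the higher side in place of 49.7%. The 2 steps share no library. Of the 2537 transcripts higher at 26 °C, 2099 (82.7%) were also higher at 20 °C and 39 were lower there. Of the 2242 lower at 26 °C, 1930 (86.1%) were lower at 20 °C and 20 were higher. Read from the other side, 43.4% of the transcripts higher at 20 °C and 39.4% of those lower at 20 °C passed in the same direction at 26 °C. The median log2 change of the transcripts higher at 26 °C was 1.05 there and 1.47 at 20 °C, and of those lower -1.03 and -1.42. Since these sets were chosen at 26 °C, where large values are favoured, the smaller median there runs against the choice. For transcripts chosen at 20 °C the medians were 1.30 at 20 °C against 0.56 at 26 °C, and -1.16 against -0.55. Across all 21992 transcripts Pearson's r of the changes was 0.68. The points are transcripts of the same libraries and not independent replicates.

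**Figure D4:**
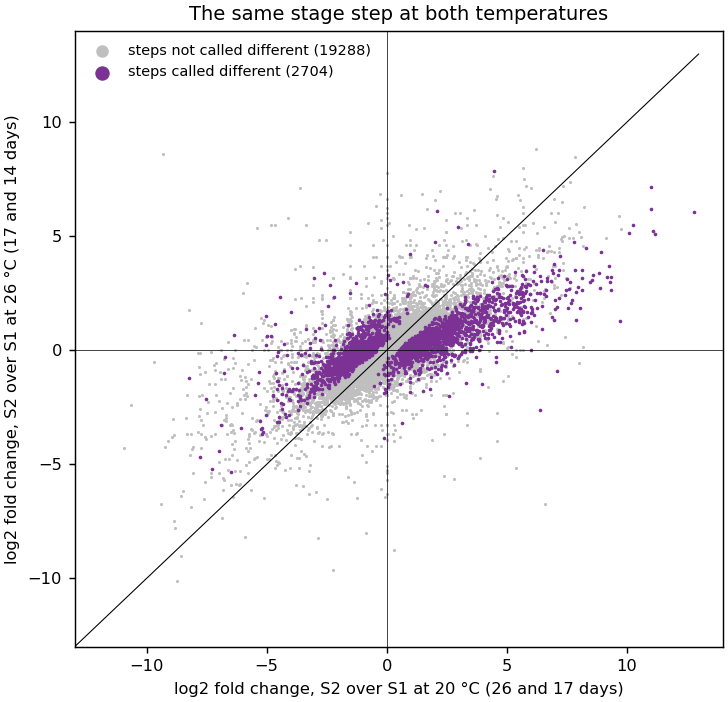
Log2 fold change from S1 to S2 of each tested transcript, at 20 °C on the horizontal and at 26 °C on the vertical axis, with the transcripts whose 2 changes differed by the test in colour. Most coloured points lie in the quadrants of equal sign and nearer to 0 at 26 °C, which held 1941 of 2704.

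The difference between the steps was tested directly in the same fit, and 2704 transcripts (12.3%) passed, 1233 (5.61%) with a more positive and 1471 (6.69%) with a more negative change at 26 °C. With library totals 8791 passed, 94.3% of them more positive, since that scaling put the median difference of all transcripts at 0.91 in place of 0.03 on the log2 scale, and a fit of only the libraries compared gave 4218. The most common form was a change of the same sign that was smaller at 26 °C, with 1168 transcripts that were positive and 773 that were negative in both steps, together 71.8% of the 2704. Changes of the same sign that were larger at 26 °C were few, 53 in all. The other 710 (26.3%) had fitted changes of opposite sign, but both changes passed in only 59 of these. The temperatures differed mostly at S1. Among the 1168 transcripts, the median log2 ratio of 26 °C to 20 °C was 1.35 at S1 and -0.12 at S2. Among the 773 it was -0.98 and 0.10. The gap between the temperatures was larger at S1 than at S2 in 91.9% of the 2704 and in 65.3% of all transcripts tested, and this is a description of the same libraries, with no test. The summed levels ran the same way: the transcripts called higher at 26 °C held 6.22% to 6.41% of counts at S1 and 23.9% to 30.1% at S2 at 20 °C, and those called lower held 30.7% to 30.9% and 5.03% to 6.96%.

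Endosperm, the tissue around the embryo, was compared over the same step at 26 °C. In a fit of its own 6397 of 26400 transcripts (24.2%) passed, 3460 (13.1%) higher and 2937 (11.1%) lower at S2, and 3794 to 4226 passed when any 1 of the 4 libraries was left out. Of the calls 54.1% were higher, and 32.1% with library totals. Of the 2429 transcripts higher in embryo that were tested in endosperm, 1038 (42.7%) were higher there and 100 lower. Of the 2105 lower in embryo, 741 (35.2%) were lower there and 72 higher. Over all 20810 transcripts tested in both, 14.8% were higher and 11.6% lower in endosperm. Embryo material in the endosperm libraries could not be checked by markers, since the rule returned 0 for embryo. MtrunA17_Chr7g0261351 stood at 7493 and 13721 normalised CPM in endosperm at S1 and S2 at 26 °C. At 20 °C it stood at 77.5 and 1091 normalised CPM there. The part of such carry-over in the shared calls was not tested. The difference between the tissues passed for 2052 of 27952 transcripts (7.34%), 970 more positive (3.47%) and 1082 more negative (3.87%) in embryo, and for 1163 to 1315 without any 1 of the 4 endosperm libraries. The share more positive in embryo was 47.3%, 21.9% with library totals and 57.5% in a fit of only the libraries compared. MtrunA17_Chr4g0011751 also rose in endosperm, by 5.92 ± 0.19, which was 1.92 ± 0.49 less than in embryo in the joint fit (adjusted p = 0.00693). Its level was higher in endosperm at both stages, with means of 1.18 and 71.9 TPM against 0.178 and 34.5 TPM in embryo. The larger fold in embryo thus starts from an S1 level near the limit of detection. MtrunA17_Chr5g0442351 did not pass in endosperm (-1.04 ± 0.33, adjusted p = 0.028), and the change in embryo minus that in endosperm was -5.49 ± 0.73 in the joint fit (adjusted p = 4.55e-06).

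Plastid and mitochondrial genomes encode a few proteins of photosynthesis and respiration and the RNAs of their own translation. The libraries were enriched for messenger RNA, which can under-represent organelle transcripts. Plastid transcripts held 0.329%, 0.459% and 0.502% of counts at S1 and 0.293%, 0.268% and 0.230% at S2. The stages did not overlap (exact permutation p = 0.1, two-sided, the smallest possible). Of 82 plastid transcripts tested, 0 were higher and 5 lower by edgeR's quasi-likelihood test, against 11.5% and 10.2% of all transcripts. At an unadjusted p below 0.05 it was 2 higher and 16 lower (19.5%), against 21.8% higher and 19.0% lower over all transcripts. DESeq2 called 0 higher and 10 lower, against 9.86% and 14.0% over all transcripts. The median log2 change was -0.20, with 55 of 82 negative, against 0.06 over all transcripts. It was -0.07 without S1 replicate 3, -0.09 without S2 replicate 3 and -0.61 with library totals. The 5 fell by 0.61 to 1.23 on the log2 scale. The count of plastid calls rested on the scaling and on single libraries: it was 18 with library totals, 3 without S1 replicate 1, 2 without S2 replicate 1 or 2, and 1 without S2 replicate 3. Mitochondrial transcripts held 0.0178%, 0.0186% and 0.0144% at S1 and 0.00939%, 0.00899% and 0.00828% at S2. Of 36 tested, 0 were higher and 1 lower, with 0 higher and 8 lower (22.2%) at an unadjusted p below 0.05 and 0 higher and 1 lower by DESeq2. The lower counts of both genomes at an unadjusted p below 0.05 are thus near the share of all transcripts. The median was -0.51, and 35 of 36 were negative, against a median of 0.06 over all transcripts. With library totals the mitochondrial median was -0.91. At 20 °C the same step gave 3 higher and 10 lower of the 82 plastid transcripts. Of the 36 mitochondrial ones 0 were higher and 1 lower. Over all transcripts 22% were higher and 22.3% lower in that step. The medians there were -0.01 for plastid and -0.54 for mitochondrial transcripts, against 0.01 over all.

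**Figure D5:**
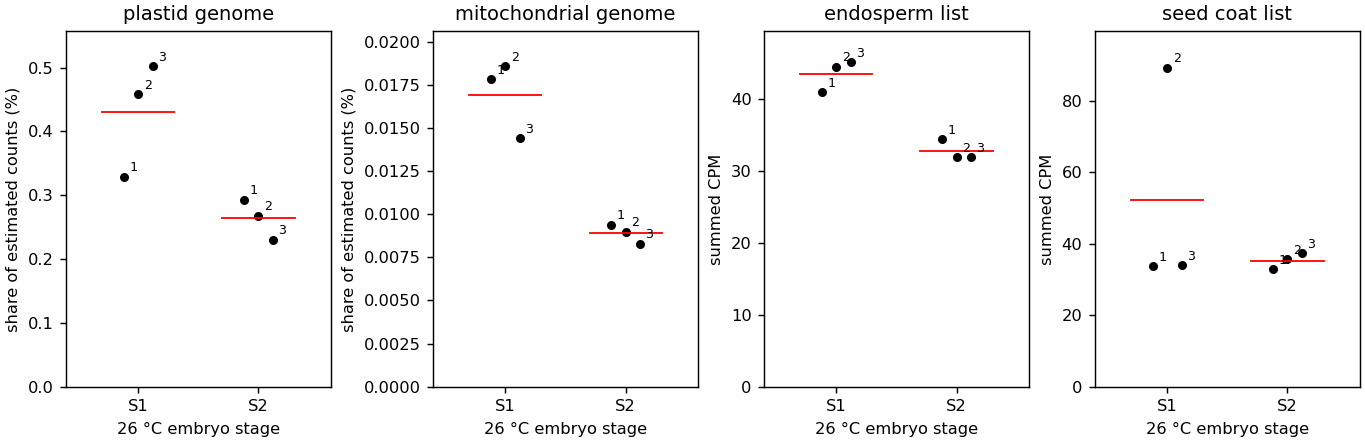
Share of estimated counts (%) of plastid and mitochondrial transcripts and summed CPM of the endosperm and seed coat marker lists in the 6 embryo libraries at 26 °C, with 1 point per library by stage, numbered by replicate, and red lines at the group means. Both organelle shares lie lower at S2, and the seed coat list stands at 89.3 CPM in S1 replicate 2.

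Called transcripts often lay beside others of the same direction. A neighbour was the nearest tested identifier on either side on the same chromosome, in the order of the identifiers. Of 2534 higher transcripts on the chromosomes, 826 (32.6%) had a neighbour that was also higher, against 21.6% of all 21813 tested there. For the lower ones it was 607 of 2235 (27.2%), against 19.3%. A neighbour of the opposite direction was found for 18.4% of the higher and 20.7% of the lower. The longest runs had 6 members in each direction, and runs of at least 4 numbered 20 for higher and 9 for lower. Near-identical copies can share reads, and 28.9% of the higher and 29.8% of the lower transcripts had a count that was not whole in at least 1 of the 6 libraries, against 33.5% of all tested. The part of shared reads in the runs was not tested.

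The later step from S3 to S4 at 26 °C, 22 to 28 days after pollination, shares no library with the S1 to S2 step. It changed 10239 of 21992 transcripts (46.6%), with 4221 (19.2%) higher and 6018 (27.4%) lower at S4. Of the 2537 transcripts that were higher at S2, 499 (19.7%) were higher and 1075 (42.4%) lower in the later step. Of the 2242 that were lower at S2, 227 (10.1%) were higher and 1058 (47.2%) lower. Both sets thus had more falls in the later step than all transcripts tested. The median change there was -0.36 for the first and -0.64 for the second set on the log2 scale, against -0.12 over all. The mean TMM factor was 0.81 at S3 and 1.36 at S4, so that scaling to library totals would move all these changes upwards. No other scaling was tried for the later step, and its balance of directions and the signs of its medians rest on TMM.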

How the data were processed

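The authors quantified single-end reads on the A17 transcriptome with Salmon in quasi-mapping mode and deposited estimated counts per transcript, not normalised and with replicates unpooled. The lengths used for TPM are also the deposited ones, 1 per transcript. Estimated counts were rounded, filtered (filterByExpr, minimum count 10, minimum total 15), scaled by TMM and tested with edgeR 4.0.16 (glmQLFit, glmQLFTest) in R 4.3.3, with 1 mean per stage and temperature over all embryo libraries. Endosperm was fitted alone, and the tissue difference in a joint fit. P-values were Benjamini-Hochberg adjusted over all transcripts tested, with a threshold of 0.01 as in the study. Standard errors were derived from the F statistic. Normalised CPM divide counts by the library total times its TMM factor. Code was tested on simulated counts.

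The 4 transcripts named were, among called transcripts whose stages do not overlap, the largest gain and loss in CPM and the largest fold in each direction with at least 10 CPM in the higher stage. Members and lists were chosen with earlier results of these data known. Lists by product name were not applied, since 0 of 44473 identifiers matched the gene table. Alternatives were RLE or library-size scaling, scaling to nuclear counts, other filters and thresholds, DESeq2 1.42.0, a replicate block, a fit of only the libraries compared, and leaving out each library. Between 18429950 and 19142113 counts per library set the precision, and since the reads carry no molecular identifiers, counting limits cover counting error only.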

Additional observations from a re-analysis of the deposited data

Results flagged for a closer look

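These results were singled out because the same step differed between temperatures or tissues by a test of the difference itself. Between 26 °C and 20 °C the S1 to S2 change differed for 2704 transcripts, and between embryo and endosperm at 26 °C for 2052. MtrunA17_Chr7g0261351 changed less at 26 °C than at 20 °C, with a difference of -3.18 on the log2 scale. MtrunA17_Chr4g0011751 had a larger fold change at 26 °C than at 20 °C, by 3.41 on the log2 scale. Its fold change was also larger in embryo than in endosperm, by 1.92, though its level was higher in endosperm. For MtrunA17_Chr5g0442351 the change in embryo minus that in endosperm was -5.49.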

How the results depend on the processing

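The 26 °C step gave 4928 calls with RLE factors, 6491 with library totals, 4460 with no filter, 3489 with at least 10 counts in every library, 5253 with DESeq2, 5402 in a fit of its 6 libraries, 2505 with at least a 2-fold change and 3596 to 4621 without 1 library. Calls shared with the reported ones had the same direction in each. The share higher was 41.4% in the fit of 6 libraries. With library totals the 20 °C step gave 14968 calls (8.32% higher) and the difference between temperatures 8791 (94.3% higher), while the higher share was 32.1% for endosperm and 21.9% for the tissue difference. The difference between temperatures gave 4218 in a fit of only its libraries and 4497 at an adjusted p below 0.05. At that threshold endosperm gave 9632 and the tissue difference 3519. With at least a 2-fold change the counts were 5987 at 20 °C, 2962 in endosperm and 1340 for the tissue difference. Leaving out 1 library gave 3794 to 4226 in endosperm and 1163 to 2000 for the tissue difference. In a fit of its 10 libraries the tissue difference was 57.5% higher. The plastid median was -0.61 with library totals, -0.62 scaled to nuclear counts and -0.29 to -0.07 without 1 library. Plastid transcripts called lower numbered 8 with RLE, 10 with DESeq2 or no filter, 19 scaled to nuclear counts and 12 in the fit of 6 libraries. Mitochondrial ones numbered 6 with library totals or nuclear counts and 4 in the fit of 6 libraries. Where not stated otherwise, the cause was not tested. A replicate block gave 4650 calls at 26 °C, 4574 of them shared, and 3 lower plastid transcripts. Same-numbered libraries of S1 and S2 correlated at -0.053, -0.031 and 0.006 in their deviations, and differently numbered ones at -0.016 to 0.048. The S2 libraries varied little beyond counting error, so that these values could hardly show a pairing if there was one. Depth limits rare transcripts most, and read division limits those with near-identical copies.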

Other observations

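The 20 largest fold rises among transcripts with at least 10 CPM at S2 ran from 4.56 to 7.87 on the log2 scale, and all 20 were also called higher at 20 °C, as were 82.7% of all transcripts higher at 26 °C and 22% of all tested. The step differed by the test for 12 of them, against 12.3% of all tested. The 20 largest falls ran from -6.47 to -3.29, and all 20 were called lower at 20 °C, as were 86.1% of all transcripts lower at 26 °C and 22.3% of all tested. The step differed for 8 of them. Higher calls made up 9.08% of the transcripts tested on chromosome 6 and 12.8% on chromosome 7, the lowest and highest of the 8 chromosomes. Lower calls ran from 9.12% on chromosome 5 to 10.8% on chromosome 7.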
